A study of Mus musculus with 12 samples.

Results

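Mitophagy, the removal of mitochondria by autophagy, and mitochondrial dynamics, the fusion and fission of the organelle, were examined through 9 genes in HT22 cells, an immortalized line derived from mouse hippocampal neurons. The genes were taken by name from the deposited tables, and all 9 are among the 25239 genes of the expression table. Of the 9, 2 genes, Mfn2 and Opa1, carry 3 of the 2643 m6A peaks of the peak table. The paper reports a larger set of m6A peaks, on more genes, than this table lists. The study compared cells treated with mesaconitine (MA), a diester-diterpenoid alkaloid of Aconitum dissolved in DMSO, with untreated control cells. Both groups are labelled wild type and were kept equally long, the treated one at a single concentration of MA. Each group has 3 anti-m6A IP and 3 input libraries, 12 in all, from 1 cell line, and nothing in the labels says that they came from separate cultures. Of 8 genes that mark neurons, 4 (Map2, Snap25, Nefl and Dcx) are listed at 0 and the highest base means are 473 for Tubb3 and 710 for Syn1, with 6 of the 8 under 100.

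Damaged mitochondria are marked for removal along a pair of routes. In one, the kinase PINK1 collects on depolarized mitochondria and phosphorylates ubiquitin there, and in the other, receptors in the outer membrane (BNIP3, BNIP3L and FUNDC1) bind LC3 directly. Fusion of the outer membranes needs the mitofusins MFN1 and MFN2 and fusion of the inner membranes needs OPA1, whereas fission needs the GTPase DRP1, encoded by Dnm1l, with FIS1 among its adaptors on the outer membrane. m6A is a methyl mark on adenosine in mRNA, often within the motif RRACH (2 purines, then A, C and any base but G), and it is known to affect the splicing, translation and stability of transcripts.

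The peaks of both genes lay in 3′ untranslated regions. Their motifs are shown here in capitals with 10 bases on either side, read 5′ to 3′ from the mm10 genome, because they are the places in these peaks where the known m6A motif could be found. The Mfn2 site lies at chr4:147873990-147874014 on the minus strand, the first Opa1 site at chr16:29652462-29652486 and the second at chr16:29652517-29652541, both on the plus strand.
Mfn2: tgtaatggaaAGACAgtgtattgcc
Opa1, first peak: aggctttctgGAACAgtaggtctct
Opa1, second peak: acgctggagaAGACTaaAGACCacc

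The Mfn2 peak covered 50 bases, chr4:147873986-147874035, in exon 20 of the 20 exons of transcript Mfn2-201. Its middle lay 1379 bases after the stop codon and 411 bases before the end of the transcript. Of 6 coding Mfn2 transcripts in the annotation, 2 hold the whole peak. It contained a single RRACH match.

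The first Opa1 peak covered 75 bases, chr16:29652401-29652475, and the second 50 bases, chr16:29652501-29652550, with 25 bases between them. Both lay in exon 29 of 29 of transcript Opa1-206, the 1 coding transcript of 4 that holds them, with their middles 695 and 782 bases after the stop codon. The second peak held 2 RRACH matches. The first held none in full, but the adenosine of the match printed above lay inside it and the match ran 1 base past its end. Among all peaks of 50 bases in the table, 48% held at least 1 RRACH match, and among those of 75 bases 63.5% did, so a match in a peak of this length is common. RRACH matches are also frequent in the rest of these regions, with 23 in the 1790 bases of the Mfn2 3′ untranslated region and 51 in the 3141 bases of that of Opa1. A further Mfn2 match had its adenosine 7 bases before the peak. Which adenosine carries m6A cannot be read from these peaks.

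**Figure D1:**
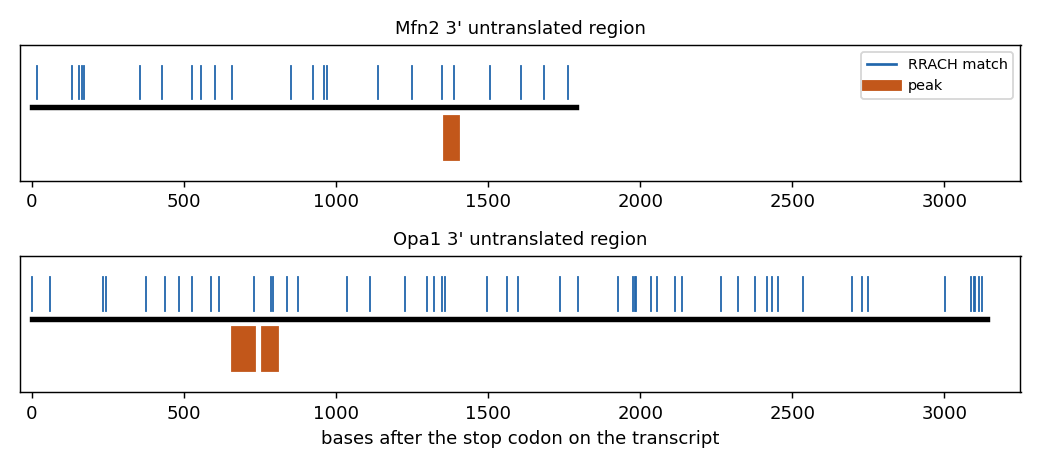
The 3′ untranslated regions of Mfn2 (transcript Mfn2-201) and Opa1 (transcript Opa1-206), with bases after the stop codon on the x axis. Blue ticks are RRACH matches and orange boxes are the peaks. The Mfn2 peak, from base 1354 to base 1403, lies toward the end of its region, and the Opa1 peaks, from base 658 to 732 and from base 758 to 807, lie in the first part of theirs.

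MeRIP-seq compares reads of RNA fragments pulled down with an m6A antibody (IP) with reads of the unselected fragments (input). The table gives a single list of peaks for both groups and pools the reads of the 3 libraries of a group, so each value below is 1 number per group. Its 95% interval covers counting error only, and no p-value was computed. The peaks were listed from these same libraries, so a peak could be listed because its MA IP reads are high. The intervals do not allow for this. Over all peaks, IP reads made up 48.1% of the control reads and 62.6% of the MA reads, so the ratio of IP to input was 1.81-fold higher after MA over the whole table. A difference in sequencing depth between the libraries cannot be told apart from this shift. The changes of single peaks were therefore scaled by these totals and state how a peak moved relative to the listed peaks as a whole. The 4 columns of all peaks summed to between 214778 reads (MA input) and 359889 reads (MA IP).

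MFN2, which tethers and fuses outer membranes, had the largest change of the 3 peaks. Its peak held 43 input and 30 IP reads of control cells, and 28 input and 80 IP reads of MA-treated cells. As raw reads, the MA IP column stood above the other 3, whose Poisson intervals overlapped. Per 1000000 reads of its column over all peaks, MA IP had 222 (interval 176 to 277), control IP 112 (75.8 to 160), control input 149 (108 to 201) and MA input 130 (86.6 to 188), so that MA IP lay apart from control IP but overlapped both inputs. The IP share of its reads was 41.1% in control cells (exact binomial 95% interval 29.7% to 53.2%) and 74.1% after MA (64.8% to 82.0%), and these intervals did not overlap. Relative to all peaks, the ratio of IP to input was 2.22-fold higher after MA, a log2 change of 1.15 (exact interval 0.19 to 2.16). Without the scaling the log2 change was 2.01 (1.05 to 3.02). In control cells the Mfn2 peak had fewer IP than input reads, also per 1000000 reads of the column. Its listing and its rise may therefore rest on the same MA IP reads. The scaled change was above that of 85.2% of all peaks, and above that of 81.4% of the 515 other peaks with 145 to 226 reads in all. Input reads fell from 43 to 28, a log2 change of -0.18 after scaling (interval -0.93 to 0.53) that counting error covers.

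OPA1 fuses inner membranes and keeps the cristae in shape. Its first peak held 29 input and 27 IP reads of control cells, and 22 input and 51 IP reads of MA-treated cells. Its second peak held 19 input and 21 IP reads in control cells, and 22 and 46 after MA. In both peaks the MA IP column was the highest. The IP share went from 48.2% (34.7% to 62.0%) to 69.9% (58.0% to 80.1%) in the first peak, with intervals that overlapped. It went from 52.5% (36.1% to 68.5%) to 67.6% (55.2% to 78.5%) in the second, where they also overlapped.

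Relative to all peaks, the log2 changes of Opa1 were 0.44 (interval -0.67 to 1.60) and 0.049 (-1.21 to 1.33), so a change beyond that of the whole table was not detectable at this depth. Without the scaling, the log2 change of the first peak was 1.30 (0.18 to 2.45) and that of the second 0.91 (-0.35 to 2.18). RNA fragments can be longer than the 25 bases between the peaks, so both may count the same fragments. With their reads summed, the scaled log2 change was 0.27 (-0.54 to 1.11) and the unscaled one 1.13 (0.32 to 1.96). Whether the change of Mfn2 differed from that of Opa1 was not tested.

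The input reads of the peaks give a narrow view of the transcripts themselves. Scaled by all input reads, the log2 change of the input was 0.036 (interval -0.84 to 0.88) in the first Opa1 peak and 0.63 (-0.32 to 1.60) in the second. Each interval included 0. Scaled in this way, the values are relative to the input of all listed peaks, and each rests on 50 or 75 bases of a transcript. A change in total RNA, whether from fewer cells or from less RNA per cell, cannot be seen in them.

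**Figure D2:**
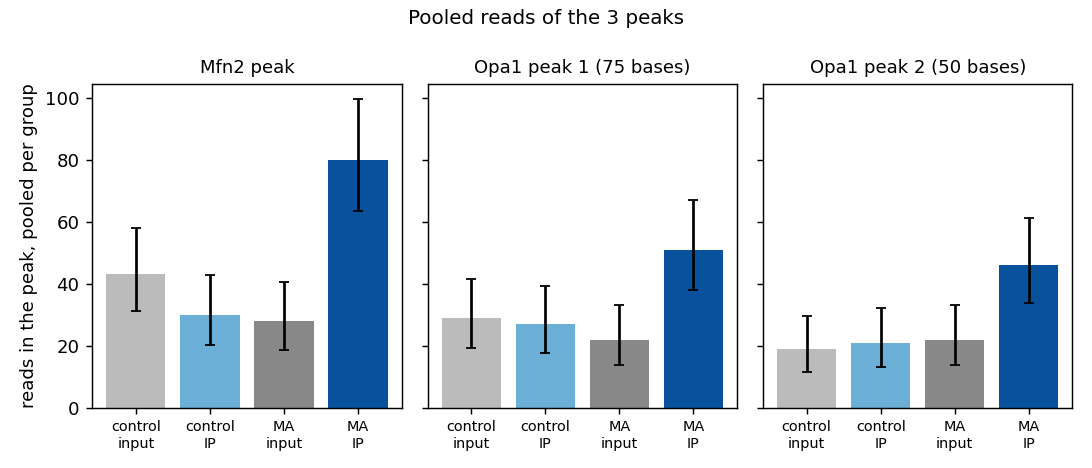
Reads in the Mfn2 peak and the 2 Opa1 peaks (y axis, number of reads), pooled over the 3 libraries of each of the 4 groups named on the x axis. Error bars are exact Poisson 95% intervals and cover counting error only. The MA IP bar is the highest in each panel, at 80, 51 and 46 reads. MA IP is also the largest column in the sum over all peaks, and the bars are not scaled for this.

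A change of more than 1.5-fold in the scaled ratio was used to describe the whole table. It was passed by 770 peaks that were higher after MA, 29.1% of all, and by 636 that were lower, 24.1%. Of the 3 peaks of Mfn2 and Opa1, 1 was past this fold (the Mfn2 peak) and none was lower. With thresholds passed by so many peaks, 1 of 3 is near the background. The median scaled log2 change was 0.44 over these 3 peaks and 0.046 over all peaks. The first of these medians is the value of the first Opa1 peak alone, and both Opa1 peaks may count the same fragments.

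The other 7 genes had no peak in the table: Pink1, Bnip3, Bnip3l, Fundc1, Mfn1, Dnm1l and Fis1. All 9 genes have base means between 1000 and 10000, where base mean is the mean over libraries of the counts after the size factors of DESeq2. Of the 5710 genes in that range 1065 had at least 1 peak, or 18.7%, against 2 of the 9 genes here. RRACH matches were present in each of the 7 transcripts, from 16 in Fis1 to 76 in Dnm1l. Per kb, Dnm1l had the most matches of the 9 genes with 19.2 and Pink1 the fewest with 10.1, while Opa1 had 16.9 and Mfn2 13.8. In total number, Opa1 had the most matches of the 9 transcripts with 105, and Mfn2 had 60. A gene without a listed peak was not shown to lack m6A, as the list is shorter than the set of peaks the paper reports.

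The levels of the 9 genes are given as base means, with no spread, since the table holds no values of single libraries. Which libraries the base means cover, input alone or also IP, is not stated. They ranged from 1455 for Pink1 to 7597 for Mfn1. All lay above the median of 528 over the 16178 genes with a base mean above 0. For a comparison between genes the base mean was divided by the length of the longest coding transcript.

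Among the receptors, which bind LC3, Bnip3l had the highest base mean per kb of all 9 genes at 1781, above 90.3% of detected genes. Bnip3, the relative of Bnip3l that is induced by hypoxia, had 1608 per kb. Fundc1, the third receptor, had 1004 per kb. Pink1, which starts the ubiquitin route, stood lower at 613 per kb, above 72.1% of detected genes.

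The ubiquitin route also needs adaptors that link ubiquitin to LC3, and most of these were well detected, with base means of 25744 for Sqstm1, 20405 for Tax1bp1, 11481 for Nbr1 and 2443 for Optn. Calcoco2, which encodes the adaptor NDP52, was near 0 with a base mean of 2.19. Transcripts of the receptor route and of 4 of these 5 adaptors were thus present.

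Among the fusion genes, Mfn1 had 1665 per kb and Mfn2 409 per kb, the lowest of the 9 genes. Opa1 lay between them with 802 per kb. Of the fission genes, Fis1 had 1731 per kb and Dnm1l 793. The highest and the lowest of the 9 genes differed 4.36-fold per kb. Fis1 has a short transcript of 948 bases, and over the 1714 bases of all its exons its level was 958 per kb, which moved it from the second to the fourth place. The other neighbours in this order, such as Opa1 with 802 and Dnm1l with 793, cannot be ranked with any certainty without a spread. Gapdh, a gene with many pseudogenes, is listed at 893 beside 54350 for Actb, and how reads of similar genes were assigned was not tested.

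**Figure D3:**
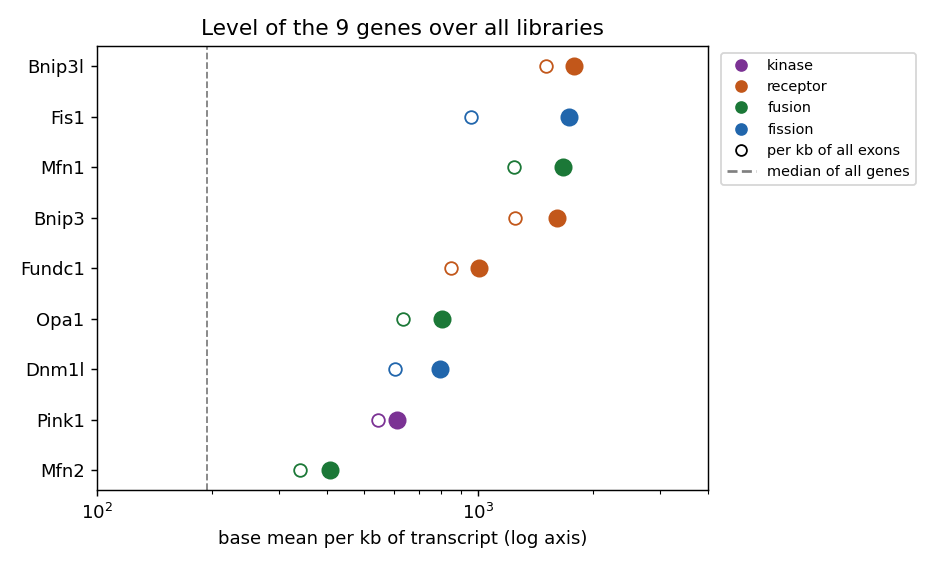
Base mean per kb (x axis, log scale) of the 9 genes, coloured by role. Filled circles use the longest coding transcript and open circles all exons of the gene, and the dashed line is the median over all detected genes, 195 per kb. All 9 genes lie to the right of the line, from 409 for Mfn2 to 1781 for Bnip3l.

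A wider list of 45 genes of mitophagy, fission, fusion and mitochondrial transport was set beside the 9 genes. All 45 are in the expression table and 33 of them have base means over 1000. Peaks were listed on 9 of the 45 genes, 12 peaks in all. Relative to all peaks, 6 of the 12 were higher after MA and 6 lower, with a median log2 change of 0.029, whereas without the scaling 11 were higher and 1 was lower. The middles of 6 of the 12 lay in no exon of a coding transcript of the gene, and these peaks spanned 801 bases or more of the genome. Past 1.5-fold were 2 higher peaks and 1 lower peak, against the 29.1% and 24.1% of all peaks.

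The 2 higher peaks were those of Bcl2l13 and Miga2. Bcl2l13, an outer membrane receptor that binds LC3, had a peak of 50 bases at chr6:120888410-120888459 in its 3′ untranslated region. This peak held 26 input and 20 IP reads in control cells and 8 and 40 after MA, and its scaled log2 change was 1.77 (interval 0.34 to 3.42). Its MA input rests on only 8 reads. Miga2, which promotes mitochondrial fusion, had a peak of 50 bases at chr2:30383950-30383999 in the coding part of its exon 16, with 76 input and 54 IP reads in control cells and 30 and 104 after MA. The scaled log2 change of this peak was 1.41 (0.61 to 2.26), whereas the other Miga2 peak had -0.0068 (-0.69 to 0.69).

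The scaled log2 change of the input was -1.21 (interval -2.63 to -0.09) in the Bcl2l13 peak and -0.90 (-1.58 to -0.29) in this Miga2 peak, against -0.18 in the Mfn2 peak. The IP reads as deposited went from 20 in control cells to 40 after MA for Bcl2l13, from 54 to 104 for Miga2 and from 30 to 80 for Mfn2.

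The 1 lower peak past the fold was that of Mief2, an adaptor that brings DRP1 to mitochondria. It had 24 input and 37 IP reads in control cells, 22 and 31 after MA, and a scaled log2 change of -0.99 (interval -2.16 to 0.19), which counting error covers. Pgam5, a mitochondrial phosphatase that acts on FUNDC1, had a change of 0.40 (0.14 to 0.66) over a peak that spans 5249 bases. This change is below 1.5-fold, and the middle of the peak lay in no exon of a coding Pgam5 transcript. The peaks of Huwe1, Trak2, Tomm20, Ulk1 and Usp15 had intervals that included 0.

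**Figure D4:**
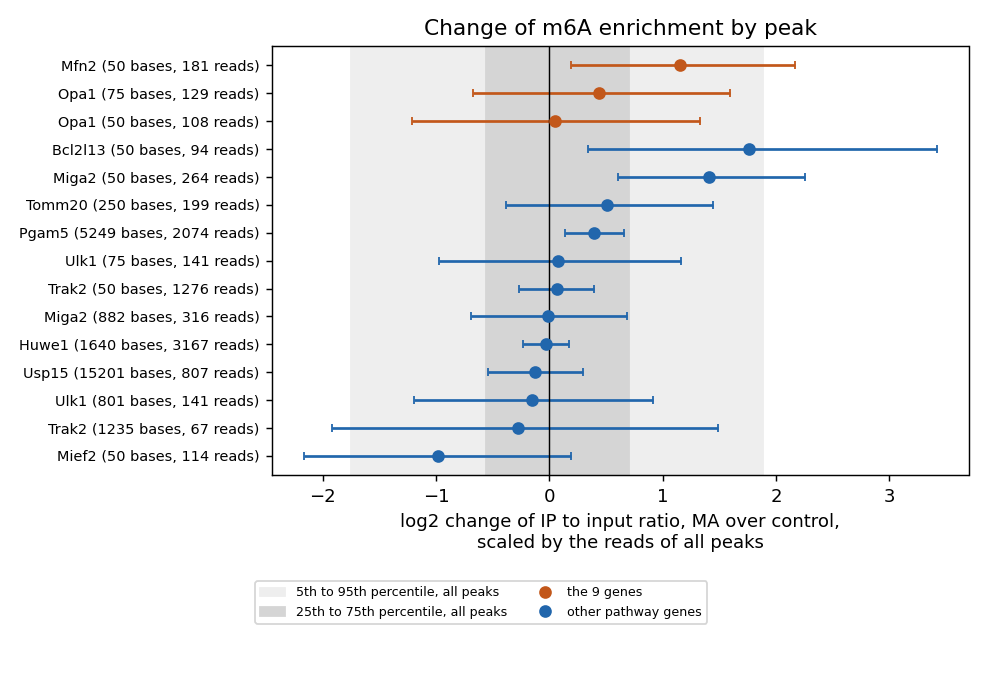
Scaled log2 change of the ratio of IP to input, MA over control (x axis), for the 3 peaks of Mfn2 and Opa1 (orange) and the 12 peaks of the wider list (blue), each named with its span and its total reads. Bars are exact 95% intervals for counting error, and the grey bands hold the central part of all 2643 peaks. The intervals of Mfn2, Bcl2l13, Miga2 (50 bases) and Pgam5 lie above 0. How many of all 2643 peaks have an interval that leaves out 0 was not counted, so these have no background to be set against. The middle of the Pgam5 peak lies in no exon of a coding transcript of the gene.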

How the data were processed

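RNA of 12 libraries (MA and control, 3 IP and 3 input libraries each) was sequenced, and the deposited tables were the starting point. Per the methods, the authors used fastp for trimming, HISAT2 for alignment to mm10, StringTie and DESeq2 for expression and exomePeak2 for peaks, with no versions stated. The deposited base mean is a normalized signal, the mean of the counts divided by size factors, and the libraries it covers are not stated. The deposited read counts per peak are pooled over the replicates of a group. Columns with values of single libraries left out numbered 0. The remaining columns hold the authors' own fold changes, standard errors, statistics and p-values of MA against control and of IP against input. They were not used, so changes of whole-gene expression are not given here.

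Values were computed with scipy 1.17.1, pandas 2.3.3 and numpy 2.4.6 in Python 3.11.15, with pysam 0.24.0 for sequence and matplotlib 3.10.9 for plots. A pseudocount of 0.5 reads was added before log2 ratios. Intervals are exact at 95% (binomial, Poisson, or conditional odds ratio). The calculation was also run on simulated reads that held counting error only, so that run does not bear on the spread between libraries. Transcripts came from GENCODE M21 and sequence from RefSeq GRCm38.p6, the assembly of mm10. RRACH was searched on the transcribed strand only, whole matches within the peak, overlaps counted. All 9 genes and the genes of the wider list with a peak were to be named, and the ubiquitin adaptors were named in addition after their levels were seen, as were the neuron markers, Gapdh and Actb. The ranges of base mean and of reads used to find like genes and like peaks were also set after seeing the data. Members and lists were chosen with earlier results of these data known. One gene of the wider list is not reported here.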

Additional observations from a re-analysis of the deposited data

How the results depend on the processing

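No paired analysis was possible because the reads of each group are pooled over its replicates, and for the same reason no replicate could be left out. Of 42 alternative values, 35 stayed within the counting interval, or within 1.5 times, of the value given, and 7 moved. The counting intervals of the peaks are wide, so a value could shift a good deal and still stay within them. A reversal of sign was looked for only in the change of the Mfn2 peak, which was past 1.5-fold, and was not seen there. The scaling moved single peaks most. Without it the log2 changes were 2.01 for Mfn2 and 1.30 and 0.91 for Opa1, each inside the interval of the scaled value, and with centring on the median of all peaks they were 1.11, 0.39 and 0.0033. A pseudocount of 1 read gave 1.13, 0.42 and 0.036. Of all peaks, 463 were higher and 364 lower past 2-fold, 1098 higher and 962 lower past 1.2-fold, and 1691 higher and 204 lower past 1.5-fold without scaling. The Fis1 level fell from 1731 to 958 per kb with all exons, and the second Opa1 peak held 3 matches of DRACH (A, G or T in the first place of RRACH) in place of 2. Summing the Opa1 peaks was chosen after seeing the data. The 108 to 181 reads per peak limit what could be seen.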
